A study of Sus scrofa with 24 samples.

Results

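The blood and lymphatic vessel genes of the pig utero-tubal junction (UTJ) were examined as a list of 44 genes of endothelium, lymphatic endothelium, vessel growth factors and pericytes. A member was taken from the probe-to-gene table of the array where it was the single symbol of a probe set, and the probe set with the highest mean over the 24 arrays stood for it. By this rule 33 of the 44 had a value, out of 12307 genes and 27558 probe sets measured. The other 11, TIE1, CDH5, EMCN, ERG, SOX7, SOX18, PLVAP, LYVE1, PDPN, VEGFB and S1PR1, had no probe set under their symbol and were not analysed here.

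The UTJ is the narrow passage between uterus and oviduct in which the sow stores spermatozoa before ovulation. Weaned Swedish Landrace sows in oestrus, with no genetic modification named, received 50 ml of Beltsville Thawing Solution, an extender without semen (control, 8 arrays), were mated with a boar (mated, 8 arrays), or were infused with 50 ml of sperm-free seminal plasma (SP-infused, 8 arrays). Whole UTJ tissue was removed by surgery within 24 h and its RNA was hybridised to a one-colour Affymetrix porcine gene array. The study took both UTJs of 4 sows per group, but the labels do not say which arrays share a sow, so the array was the unit and the p-values, which treat arrays as independent, are too small. Mating delivers spermatozoa together with seminal plasma and infusion delivers the plasma alone, so the comparisons asked how vessel transcripts stood after each.

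Blood vessels are lined by endothelial cells that hold together through surface and junction proteins and are wrapped by pericytes. The VEGF ligands act through the receptor kinases FLT1, KDR and FLT4, and the angiopoietins act through TEK, while Notch ligands and receptors divide the cells of a growing vessel into leading and following ones. In the oviduct and uterus these vessels feed the mucosa and swell with fluid around oestrus, and inflamed endothelium puts out selectins and adhesion molecules that catch leukocytes.

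Of 5 defining markers of endothelium 3 had a value (PECAM1, TEK and KDR), while CDH5 and TIE1 had no probe set. PECAM1 lay between log2 intensities of 8.06 and 9.21 and TEK between 6.70 and 8.08 over the 24 arrays. Their height above background was not tested. In whole tissue, fewer cells of a type and less RNA per cell cannot be told apart, and the group names stand for the arrays so labelled. The study's own lists of genes called against control do not follow these labels gene by gene. The member RGS5 is listed there as higher in sows after SP-infusion. By these labels it differed by 0.02 between SP-infused and control, and by 0.40 between mated and SP-infused. Which treatment each labelled group received, and with it the direction of every difference given here, therefore rests on the deposited labels alone. Control replicate 1 stood apart: its values had an SD of 1.91 over all probe sets, against 2.04 to 2.14 on the other 23 arrays, and it held the highest value of 8 of the 33 members and the lowest of 4.

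After mating, PECAM1, TEK, the platelet and endothelial selectin SELP and the Norrin co-receptor TSPAN12 had higher mean levels than in controls, by 0.41, 0.42, 0.55 and 0.40 on the log2 scale. These are folds of 1.33, 1.34, 1.46 and 1.32. Over the 33 members, 8 were higher and 1 was lower at an unadjusted p under 0.05, which is 27.3% of members against 10.2% of all genes. The members were chosen with earlier results of these data known, so this and the later shares describe the list and do not test it. The count was 4 of 33 without mated replicate 7 and 5 of 33 without control replicate 8. With an array left out, the share of all genes ran from 7.47% to 13.4%. In the single directions the background was 2.93% of genes higher and 7.3% lower, but 5.95% and 3.45% with array medians made equal, where 9 members were higher and 0 lower. No member passed an adjusted p of 0.05, and neither did any of the 27558 probe sets, of which 3142 (11.4%) had an unadjusted p under 0.05 (limma, Benjamini-Hochberg). The lowest adjusted p of a member was 0.203. The study, by contrast, reported a few pig genes past its false discovery threshold of 0.05 after mating, and the reason for this difference was not tested. The median log2 fold change of the members was 0.18 and 23 of 33 were above 0, while over all genes the median was -0.04 and 41.5% were above 0.

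**Figure D1:**
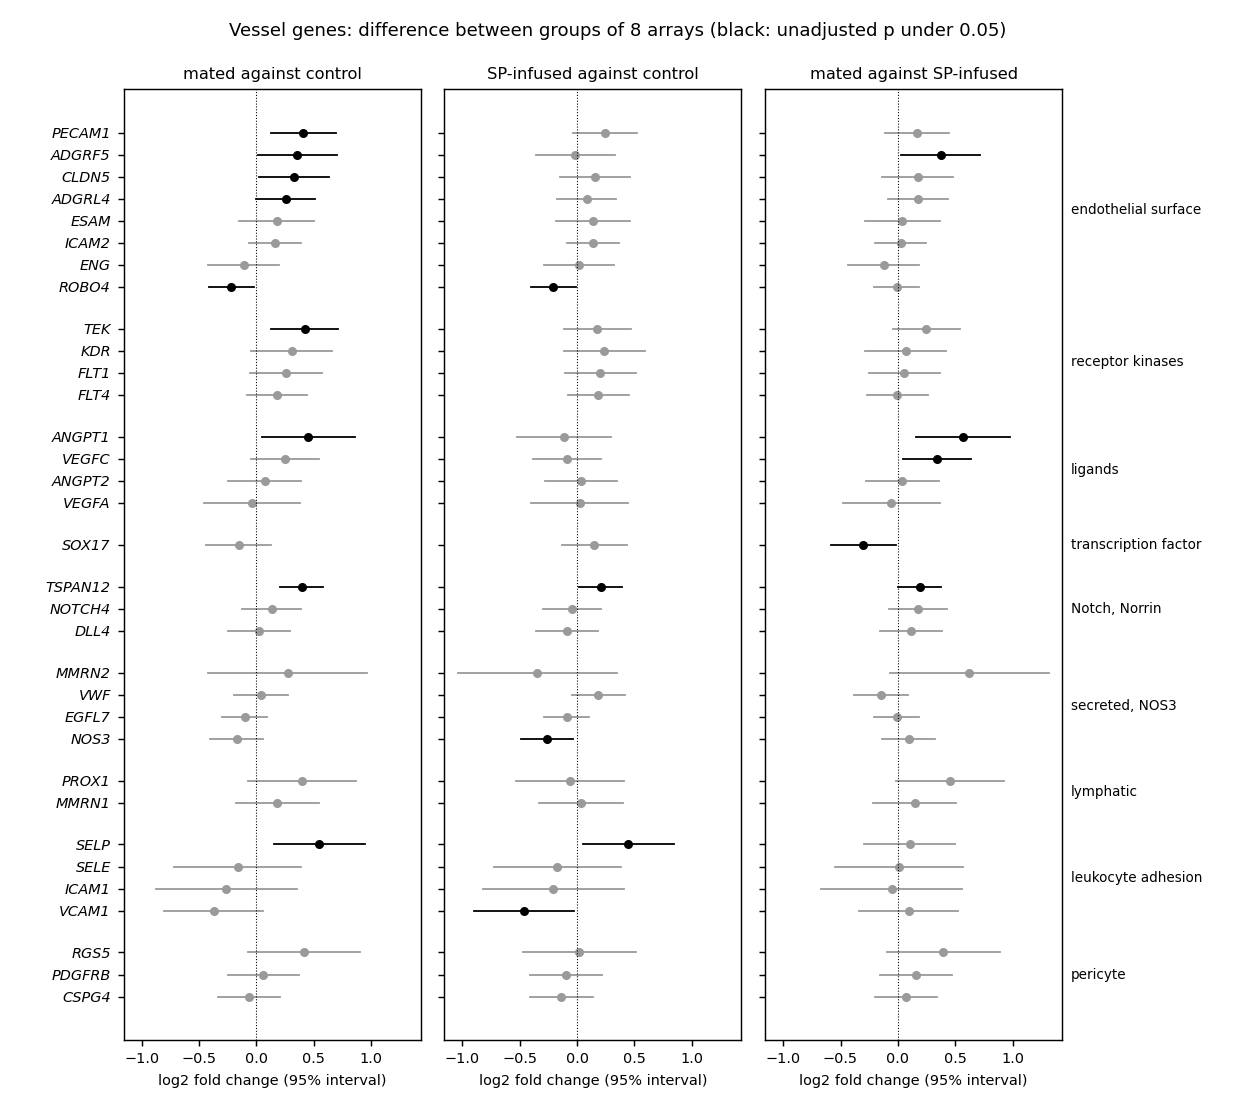
Log2 fold change (x axis, point) with its 95% interval (line) of the 33 members in each comparison of 8 against 8 arrays, grouped by role and with the unadjusted p under 0.05 in black. In mated against control 8 members are black to the right of 0 and ROBO4 is black to the left, and the receptor kinases lie to the right of 0 in both comparisons with control.

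Among the surface and junction proteins, 8 of 12 listed had a value. PECAM1, the adhesion molecule CD31 at the contacts of endothelial cells, had a lowest, median and highest log2 value of 8.06, 8.53 and 9.09 in control arrays, 8.61, 8.78 and 9.21 in mated arrays and 8.29, 8.79 and 9.05 in SP-infused arrays. Each of the 8 mated arrays lay above the control median, yet only 2 exceeded the highest control, control replicate 5, so the groups overlapped. The mated mean was higher by 0.41 (SE 0.137, unadjusted p = 0.00612, adjusted p = 0.348), and the SP-infused mean by 0.24 (SE 0.137, adjusted p = 0.891). Between mated and SP-infused arrays the difference in PECAM1 was 0.17 with a 95% interval of -0.12 to 0.45.

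CLDN5, the claudin of endothelial tight junctions, ran from 5.09 through a median of 5.55 to 6.01 in controls, from 5.58 through 5.90 to 6.14 after mating and from 5.24 through 5.76 to 6.15 after SP-infusion. All 8 mated arrays were above the control median and 3 were above every control. ADGRF5, an adhesion receptor of endothelium, spanned 6.09 to 7.06 in controls around a median of 6.53, 6.41 to 7.30 around 6.92 after mating, and 5.88 to 6.84 around 6.69 after SP-infusion. Of its mated arrays, 7 were above the control median and 6 were above the highest SP-infused array. ADGRL4, another adhesion receptor of endothelium, had lowest, median and highest values of 8.58, 8.86 and 9.38 in controls, 8.78, 9.18 and 9.61 in mated and 8.81, 8.95 and 9.33 in SP-infused arrays. Its groups overlapped over most of their range. Mated means exceeded control means by 0.33 for CLDN5 (SE 0.149, adjusted p = 0.414), by 0.36 for ADGRF5 (SE 0.168, adjusted p = 0.424) and by 0.26 for ADGRL4 (SE 0.125, adjusted p = 0.438).

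ROBO4, an endothelial guidance receptor that steadies vessels, went the other way. Its values were 5.65, 5.89 and 6.19 (lowest, median, highest) in controls, 5.46, 5.69 and 5.80 in mated arrays and 5.18, 5.75 and 5.96 in SP-infused arrays. None of the 8 mated arrays and 1 of the 8 SP-infused arrays reached above the control median. The log2 fold change was -0.22 after mating (SE 0.0951, unadjusted p = 0.0303) and -0.21 after SP-infusion (SE 0.0951, unadjusted p = 0.0383), both measured against the same controls. With array medians made equal, it was -0.16 and -0.17 and no longer under the unadjusted 0.05. Of the remaining surface proteins, the junction molecule ESAM and the leukocyte ligand ICAM2 had mated minus control values of 0.18 and 0.16, and the TGF-beta co-receptor ENG had -0.11. None of these 3 had an unadjusted p under 0.05.

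The 4 receptor kinases with a value, TEK, KDR, FLT1 and FLT4, were all above 0 in both comparisons with control, with medians of 0.28 after mating and 0.19 after SP-infusion. TEK, the angiopoietin receptor, had a lowest, median and highest value of 6.70, 7.24 and 7.92 in controls, 7.34, 7.67 and 8.08 in mated arrays, and 7.22, 7.42 and 7.66 in SP-infused arrays. Control arrays were spread more widely than either other group, with control replicates 8 and 5 at the ends, and every mated array was above the control median. The mated mean was higher by 0.42 (SE 0.141, unadjusted p = 0.00639, adjusted p = 0.348) and the SP-infused mean by 0.18 (SE 0.141, adjusted p = 0.891). Between mated and SP-infused the TEK difference was 0.25 (unadjusted p = 0.0945).

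KDR, the main VEGFA receptor of endothelium, differed from control by 0.31 after mating and by 0.24 after SP-infusion, with intervals of -0.04 to 0.66 and -0.11 to 0.59. FLT1, which binds VEGFA and can withhold it from KDR, differed by 0.26 and 0.20, and 4 of its 8 mated arrays were above the highest control. FLT4, the VEGFC receptor of lymphatic endothelium, differed by 0.18 in both. None of these 3 had an unadjusted p under 0.05 in any comparison. FLT4 crossed that line after both treatments when control replicate 1 was left out, at 0.25 and 0.26.

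The ligands split. ANGPT1, the mural cell product that activates TEK, was a dim probe set with a mean of 4.19 in control arrays, where its values ran from 3.68 through 4.22 to 4.57. After mating they ran from 3.72 through 4.64 to 5.49 and after SP-infusion from 3.62 through 4.11 to 4.52. Of the mated arrays, 5 of 8 lay above every control and also above every SP-infused array, with mated replicate 4 highest and mated replicate 3 down among the lowest values of the other groups. The mated mean was higher by 0.45 than control (SE 0.197, unadjusted p = 0.0304, adjusted p = 0.404) and by 0.57 than SP-infused (SE 0.197, unadjusted p = 0.00819, adjusted p = 0.998). Without mated replicate 4 these were 0.33 and 0.45, and the first was then no longer under the unadjusted 0.05.

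VEGFC, the growth factor of lymphatic vessels, had lowest, median and highest values of 6.81, 7.11 and 7.72 in controls, 6.75, 7.60 and 7.74 in mated and 6.96, 7.08 and 7.23 in SP-infused arrays. The SP-infused arrays were drawn tightly together, and 6 of the 8 mated arrays lay above all of them. Mated exceeded SP-infused by 0.34 (SE 0.144, unadjusted p = 0.0251, adjusted p = 0.998) and control by 0.25 (unadjusted p = 0.0918). ANGPT2, which can oppose ANGPT1 at TEK, had a mated minus control value of 0.07 with an interval of -0.24 to 0.39. VEGFA, the principal blood vessel growth factor, was at -0.04 with an interval of -0.46 to 0.38. With array medians made equal VEGFA was at 0.02. A second and dimmer VEGFA probe set, with a mean of 4.71, gave -0.41 (SE 0.313) for mated minus control. For mated minus SP-infused the second gave -0.42 and the first -0.06, so the size of the VEGFA difference hung on the probe set.

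**Figure D2:**
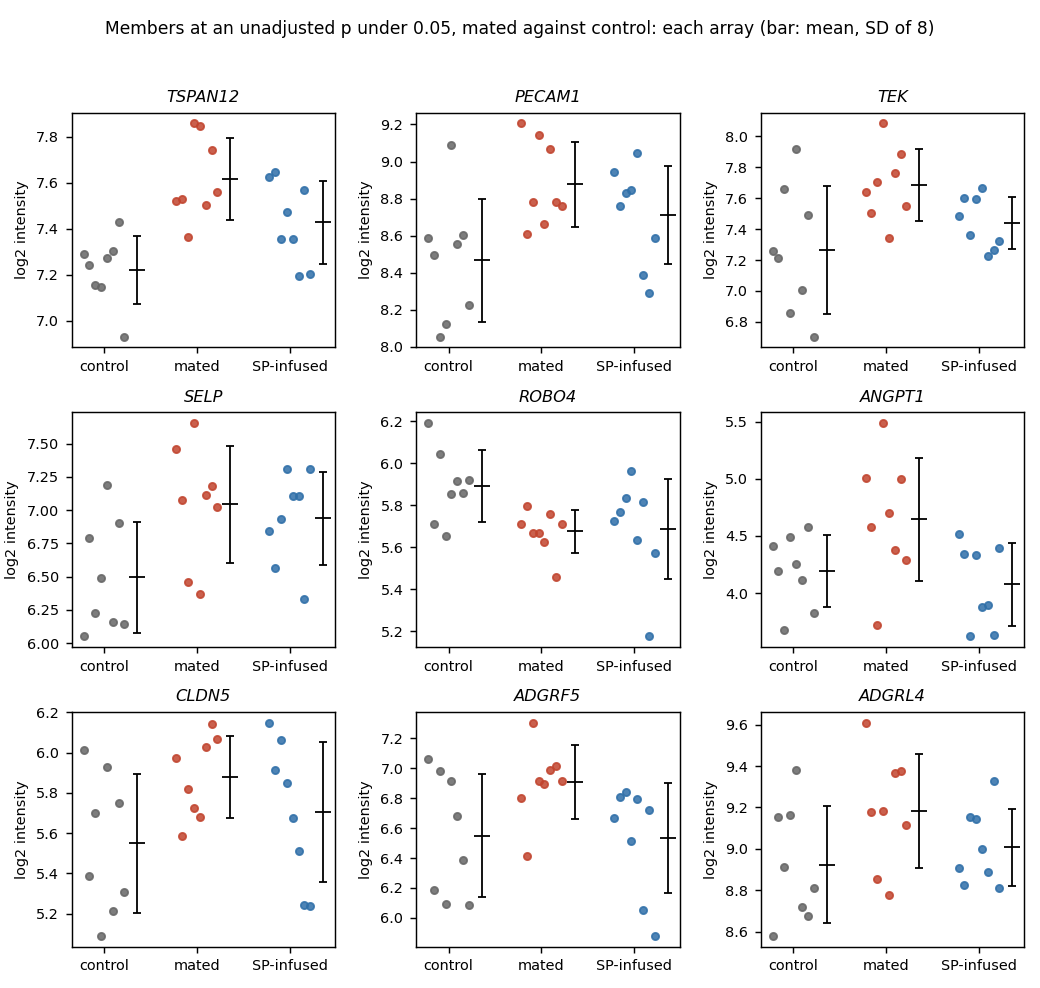
Log2 intensity (y axis) on every array of the 9 members at an unadjusted p under 0.05 in mated against control, with the mean and SD of 8 arrays as a bar beside the points of each group. For TSPAN12, 7 of 8 mated arrays lie above the highest control, while for PECAM1, TEK and SELP only 1 or 2 do and the groups overlap.

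Of the 3 members of Notch and Norrin signalling, TSPAN12 carried the lowest p of the 33 members. TSPAN12 is a tetraspanin that strengthens the Norrin signal through the receptor FZD4 and is needed for the vessels of the mouse retina. Its lowest, median and highest values were 6.93, 7.26 and 7.43 in controls, 7.37, 7.54 and 7.86 in mated arrays and 7.19, 7.41 and 7.65 in SP-infused arrays. The 8 mated arrays were all above the control median, 7 were above the highest control, control replicate 7, and mated replicate 3 alone fell inside the control range. SP-infused arrays lay between the other groups, with 4 of 8 above every control.

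For TSPAN12 the mated mean was higher than control by 0.40 (SE 0.091, unadjusted p = 0.000209, adjusted p = 0.203). SP-infused was higher than control by 0.21 (SE 0.091, unadjusted p = 0.0321, adjusted p = 0.891), and mated was higher than SP-infused by 0.19 (SE 0.091, unadjusted p = 0.0488, adjusted p = 0.998). It was the only one of the 33 members with an unadjusted p under 0.05 in all 3 comparisons, which share arrays. This did not hold with many of the arrays left out in turn. For mated against SP-infused, TSPAN12 was no longer under the unadjusted 0.05 in 14 of these fits and under 2 of the alternative settings. For SP-infused against control it was no longer under it in 6 of these fits, and for mated against control in none. The Notch receptor NOTCH4 and its ligand DLL4 had mated minus control values of 0.13 and 0.02, without an unadjusted p under 0.05.

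In none of the 3 comparisons were the arrays of a member's groups fully separate. Among all genes the groups did not overlap for 0.065% in mated against control, 0.0163% in SP-infused against control and 0.00813% in mated against SP-infused.

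The secreted proteins and the endothelial nitric oxide synthase had a median of -0.03 after mating, which was 0.03 with array medians made equal, and of -0.18 after SP-infusion. NOS3, which makes the nitric oxide that relaxes vessels, had lowest, median and highest values of 5.50, 5.84 and 6.19 in controls, 5.49, 5.66 and 6.01 in mated and 5.27, 5.58 and 5.90 in SP-infused arrays. Only 2 of the 8 SP-infused arrays and 1 of the 8 mated arrays were above the control median. The log2 fold change was -0.26 after SP-infusion (SE 0.112, unadjusted p = 0.0268, adjusted p = 0.891) and -0.17 after mating (unadjusted p = 0.14).

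VWF, the clotting protein that endothelium stores and releases, differed by 0.04 after mating, with an interval of -0.19 to 0.27, and by 0.19 after SP-infusion. EGFL7, which endothelium secretes into its matrix, differed by -0.10 and -0.09. MMRN2, a matrix protein of endothelium, spread from 4.66 to 7.24 over the arrays. Its probe set gave 0.27 after mating and -0.35 after SP-infusion, while the second MMRN2 probe set gave 0.11 and 0.09, so the direction after SP-infusion hung on the probe set.

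SOX17 was the only transcription factor of the blood endothelium with a value and is also found in oviduct epithelium. It spanned 7.27 to 7.79 around a median of 7.50 in controls, 6.85 to 7.85 around 7.40 after mating and 7.29 to 8.07 around 7.60 after SP-infusion. The mated arrays reached lower than the others and covered most of the range. The log2 fold change between mated and SP-infused was -0.30 (SE 0.137, unadjusted p = 0.0366, adjusted p = 0.998), and its second probe set gave -0.34. In the same comparison 6 of the 7 measured epithelial markers were below 0, with a median of -0.32, and their part in the SOX17 difference was not tested.

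For lymphatic endothelium, 2 of 4 listed members had a value. PROX1, the transcription factor that sets lymphatic identity, had medians of 6.00 in controls, 6.42 in mated and 5.92 in SP-infused arrays, within ranges of 5.58 to 7.00, 5.98 to 7.07 and 5.31 to 6.92. All 8 mated arrays were above the SP-infused median, but just 1 was above the highest SP-infused array. The mated mean was higher by 0.40 than control (SE 0.228, unadjusted p = 0.0942) and by 0.46 than SP-infused (SE 0.228, unadjusted p = 0.0561). MMRN1, a multimerin of lymphatic endothelium and platelets, differed by 0.18 and 0.15 in these comparisons, with all 8 mated arrays above the medians of both other groups.

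The leukocyte adhesion molecules parted. SELP, the selectin that platelets and endothelium hold in store and put on their surface within minutes of a stimulus, had lowest, median and highest values of 6.05, 6.36 and 7.19 in controls, 6.37, 7.10 and 7.66 in mated and 6.34, 7.02 and 7.31 in SP-infused arrays. All 8 mated and 7 of 8 SP-infused arrays were above the control median, and 2 of each exceeded the highest control. The mated mean was higher by 0.55 (SE 0.193, unadjusted p = 0.00863, adjusted p = 0.349) and the SP-infused mean by 0.44 (SE 0.193, unadjusted p = 0.0297, adjusted p = 0.891). Mated and SP-infused differed by 0.10, with a 95% interval of -0.29 to 0.50. The 7 measured red cell and platelet markers were all below 0 against control after both treatments, with medians of -0.21 and -0.15. Their probe sets were dim, with means of 3.55 to 4.76, and the part of platelets in the SELP difference was not tested. With cyclic loess 5 of these 7 were below 0 after each treatment, and the medians stayed below 0, at -0.10 and -0.07.

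VCAM1, the ligand of the leukocyte integrin VLA-4, had lowest, median and highest values of 7.21, 7.55 and 8.56 in controls, 6.79, 7.48 and 7.73 in mated and 6.72, 7.09 and 7.88 in SP-infused arrays. Of the SP-infused arrays, 5 of 8 lay at or below the control median, and the highest control, control replicate 6, was above all of the treated arrays. The log2 fold change was -0.46 after SP-infusion (SE 0.21, unadjusted p = 0.0365, adjusted p = 0.891) and -0.37 after mating (unadjusted p = 0.0901). Without control replicate 6 the first was -0.34, with an unadjusted p of 0.0998. Control replicate 8 was the next highest control, at 8.38, and these arrays were not left out together.

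ICAM1, the ligand of LFA-1, had the widest control range of this role, 6.41 to 8.80 with an SD of 0.98, against SDs of 0.33 and 0.39 in mated and SP-infused arrays. Its differences from control of -0.26 and -0.21 were smaller than that spread. The highest controls were control replicates 8 and 6, as for VCAM1 in reverse order, at 8.80 and 8.63. The medians went the other way from the means, at 6.77 in control, 6.92 in mated and 6.88 in SP-infused arrays. SELE, the selectin made by inflamed endothelium, was dim and differed by -0.16 and -0.17.

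Pericyte genes had a median of 0.06 after mating and -0.10 after SP-infusion. RGS5, a regulator of G protein signals in mural cells, had medians of 10.22 in controls, 10.61 in mated and 10.26 in SP-infused arrays, within 9.80 to 10.89, 9.97 to 11.43 and 9.57 to 11.28. The mated mean was higher than control by 0.42 (SE 0.238, unadjusted p = 0.0926), with 3 of 8 mated arrays above all controls. The PDGF receptor PDGFRB and the proteoglycan CSPG4 (NG2) had mated minus control values of 0.06 and -0.07.

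After SP-infusion, 2 members (SELP and TSPAN12) were higher and 3 (NOS3, VCAM1 and ROBO4) were lower than control at an unadjusted p under 0.05, 15.2% of members against 4.53% of all genes. The background was 1.51% of genes higher and 3.02% lower. None passed an adjusted p of 0.05, the lowest being 0.891, and of all probe sets 0 passed while 1420 (5.15%) had an unadjusted p under 0.05. The median log2 fold change of the members was 0.02 with 18 of 33 above 0, beside -0.03 and 42.3% for all genes. The count was 1 without control replicate 3, 6 or 8. Without control replicate 1 it was 2 (FLT4 and TSPAN12), and with array medians made equal it was 2, both higher. With an array left out, the share of all genes ran from 2.81% to 7.21%.

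In mated against SP-infused, the one comparison without the control arrays, ANGPT1, VEGFC, ADGRF5 and TSPAN12 were higher after mating and SOX17 was lower at an unadjusted p under 0.05. That is 15.2% of members, against 3.31% of all genes, of which 1.54% were higher and 1.76% lower. The count of 5 was 2 without mated replicate 4 or 7 or SP-infused replicate 6, and also with array weights. With an array left out, the share of all genes ran from 1.89% to 4.74%. The lowest adjusted p of a member was 0.998, and 0 probe sets passed an adjusted p of 0.05 while 920 (3.34%) had an unadjusted p under 0.05. Of the members 25 of 33 were above 0 with a median of 0.09, beside 46.3% and -0.01 for all genes. For ADGRF5 the difference was 0.37 (SE 0.168, unadjusted p = 0.0356).

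**Figure D3:**
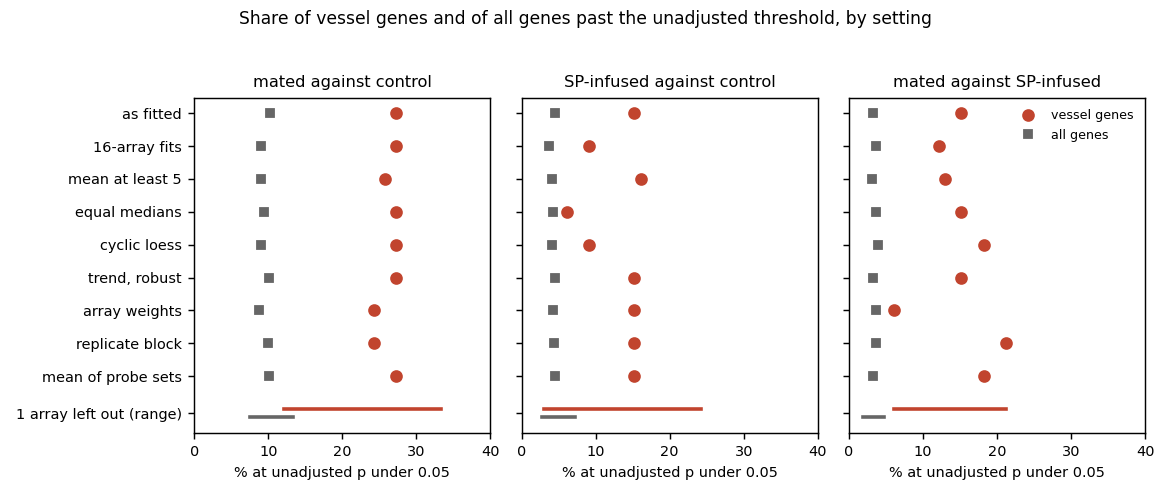
Share of the members (red) and of all genes (grey) with an unadjusted p under 0.05 (x axis, percent), under the fit as reported, 8 other settings and, as bars, the range over leaving out each of the 24 arrays. In mated against control the members stay above all genes in each of the 8 settings, and in SP-infused against control the shares come close with equal medians. With an array left out, the ranges of members and of all genes overlap in both comparisons with control.

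Of other vessel genes that are not among the 44, 71 of 99 listed had a value. These lists too were chosen with earlier results of these data known, so their shares are a description. In mated against control 13 of the 71 were higher and 1 was lower at an unadjusted p under 0.05, 19.7% against the 10.2% of all genes, and none passed an adjusted p of 0.05. The list of further endothelial genes held 7 of these, out of 23 measured, with a median of 0.13. CALCRL, the receptor of adrenomedullin on endothelium, had a mean log2 value of 8.34 ± 0.43 (SD, n = 8) in mated and 7.60 ± 0.47 in control arrays, a difference of 0.75 (SE 0.197, adjusted p = 0.296). TFPI, the inhibitor of tissue factor that endothelium makes, was higher by 0.63 (SE 0.193, adjusted p = 0.326), and CD34, a surface sialomucin of endothelium, by 0.41 (SE 0.137, adjusted p = 0.349).

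After SP-infusion 4 of the 71 were higher and 2 were lower than control at an unadjusted p under 0.05, 8.45% against 4.53% of all genes (1.51% higher and 3.02% lower), and none passed an adjusted p of 0.05. CALCRL was higher by 0.52 (SE 0.197) and the sphingosine 1-phosphate receptor S1PR3 by 0.69 (SE 0.301), while the pericyte gene HIGD1B had a log2 fold change of -0.30 (SE 0.123), each with an adjusted p of 0.891. In mated against SP-infused 1 of the 71 had an unadjusted p under 0.05, or 1.41%, a smaller share than the 3.31% of all genes. It was ADGRA2, a co-receptor of Wnt signals in mouse brain vessels, at 0.35 (SE 0.129, adjusted p = 0.998).

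The mean deviation of the 33 members from their 24-array means lay between -0.22 and 0.14 over the control arrays, between -0.08 and 0.32 over the mated arrays and between -0.15 and 0.07 over the SP-infused arrays. The highest was mated replicate 4, which held the highest value of 8 members, and the lowest was control replicate 4. Of the 33 members, 16 had their highest array in the mated group, 13 in the control group and 4 in the SP-infused group.

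**Figure D4:**
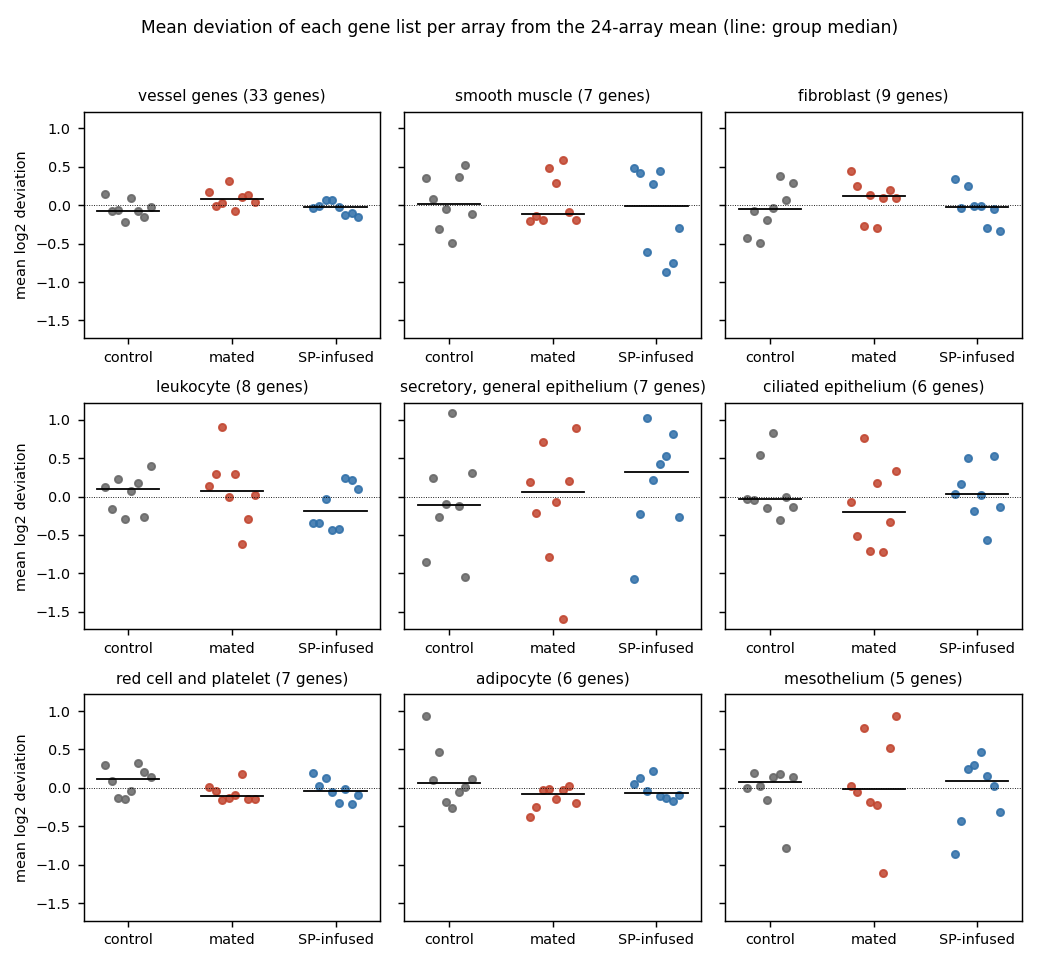
Mean log2 deviation per array (y axis) of the 33 vessel genes and of 8 lists of markers of other cell types from each gene's mean over 24 arrays, with the group median as a line. The vessel genes span less than the epithelial and mesothelial lists, which average 5 to 7 genes each. A mean over more genes tends to vary less, so these spans cannot be set against each other. The secretory and general epithelial list runs from -1.04 to 1.08 within the control arrays alone.

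No marker of another cell type passed an adjusted p of 0.05. In mated against control, all 6 adipocyte, all 6 ciliated and all 7 red cell and platelet markers with a value were below 0, with medians of -0.26, -0.23 and -0.21, of which 3, 0 and 2 had an unadjusted p under 0.05. With array medians made equal or cyclic loess at least 5 of each were below 0. Of the secretory and general epithelial markers 6 of 7 were below 0, with a median of -0.24. Fibroblast, leukocyte, mesothelial and smooth muscle lists had medians of 0.05, 0.04, 0.17 and 0.01, and the fibroblast median was -0.01 without control replicate 1. The per-array mean of the epithelial list lay between -1.04 and 1.08 in controls, -1.59 and 0.89 after mating, and -1.07 and 1.03 after SP-infusion. That of the adipocyte list lay between -0.26 and 0.93, -0.37 and 0.03, and -0.17 and 0.22 in the same order. The 0.93 was control replicate 1, with the next control, replicate 3, at 0.47. The adipocyte probe sets were mostly dim, with means from 3.64 (LEP) to 5.61 (LPL).

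In SP-infused against control, all 8 leukocyte and all 7 smooth muscle markers were below 0, with medians of -0.16 and -0.13, although 6 of the 8 leukocyte markers were below 0 with cyclic loess. In mated against SP-infused, all 8 leukocyte markers were above 0, with a median of 0.20. The leukocyte list lay between -0.30 and 0.39 in controls, -0.61 and 0.90 after mating, and -0.44 and 0.24 after SP-infusion. The part of these lists in the vessel gene differences was not tested.

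From array to array, once each group's mean was taken off, the members nearest to PECAM1 over the 24 arrays were TEK and NOS3 (Pearson's r 0.59 each), CLDN5, VEGFC, SELP and FLT4 (0.56 each). Without the 2 arrays farthest from the median of PECAM1, r was 0.45 for TEK, 0.56 for NOS3, 0.44 for CLDN5, 0.53 for VEGFC, 0.38 for SELP and 0.57 for FLT4. These 6 of 32 members had an r above 0.5, as did 2.10% of all genes, and the median r was 0.25 for members and 0.0035 for all genes. TSPAN12, the member of lowest p after mating, had an r of 0.28. KDR, also a defining marker of endothelium, had an r of 0.25, and ENG and VWF had 0.14 and 0.13. NOS3 varied with PECAM1 within groups although its group means went the other way. At the other end, VEGFA (-0.41), SOX17 (-0.38), VCAM1 (-0.32) and ICAM1 (-0.21) varied against it. The arrays share sows, labelling and scaling, so these values are a description.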

How the data were processed

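Processed log2 values of 27558 probe sets on 24 arrays were used. Per the labels and the study's methods, the authors deposited log2 intensities made by RMA (background adjustment, quantile normalization and a summary per probe set). Versions and the genome build of the array annotation are not given in the sources used here. Probe sets were named from GEO's platform table: 13257 carried 1 gene symbol, 427 several and 13874 none, and only the first were named. A gene number stood beside 12965 of these, and RefSeq's pig gene table held 12804 of the numbers, under the same symbol.

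A linear model with 1 mean per group was fitted over all 24 arrays in limma 3.58.1 (R 4.3.3, lmFit and eBayes), with Benjamini-Hochberg adjustment over all probe sets. All p-values in the text come from this model and its alternatives. The procedure was tested on simulated data whose arrays were drawn independently, so the effect of arrays that share a sow was not tested. Values are given for PECAM1, TEK, each member at an unadjusted p under 0.05, the 3 lowest p in a comparison and the 3 other vessel genes of lowest p, and further members were added after their values were seen. Members and lists were chosen with earlier results of these data known. The alternatives were 8 settings and leaving out each array in turn. Labels and methods give control sows 50 ml of extender, whereas the study's design text describes untreated controls. Arrays have no read depth, so their number limits the precision. No sequence is shown, and promoter motifs were not analysed here.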

Additional observations from a re-analysis of the deposited data

Results flagged for a closer look

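Of 99 groups of 8 arrays checked (33 members in 3 groups), 4 had 1 array far from the other 7, by Dixon's critical value at 95%, where chance alone gives about 1 in 20 groups. Control replicate 1, the array with the narrow spread of values, held 2 of them: ANGPT2 at 7.41, with the next control at 6.90, and the pericyte proteoglycan CSPG4 at 6.95, with the next at 6.22. The lymphatic receptor FLT4 was at 5.38 on mated replicate 2, below the next mated array at 5.87. The lymphatic gene MMRN1 was at 7.73 on mated replicate 7, above the next at 7.05.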

How the results depend on the processing

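In none of the 3 comparisons did a member pass an adjusted p of 0.05 under any of the 8 settings or with any array left out, and no fold change of a member with an unadjusted p under 0.05, or of PECAM1 or TEK, changed sign. The number of members at an unadjusted p under 0.05 after mating was 9 under 5 of the settings run and 8 under the other 3. The split was 9 higher and 0 lower with array medians made equal and with cyclic loess, where all genes split 732 to 425 and 564 to 545 in place of 360 to 898. With an array left out it ran from 4 (without mated replicate 7) to 11 (without control replicate 5 or mated replicate 2), and was 5 without control replicate 8. PECAM1, TEK, SELP and TSPAN12 stayed under 0.05 in every one of these, and the adjusted p of TSPAN12 ran from 0.139 to 0.411. ADGRL4 did not in 18 of the 24 leave-outs, ADGRF5 in 10 and CLDN5 in 8. For SP-infused against control the count of 5 was 3 with pairwise fits, 2 with equal medians and 3 with cyclic loess, and ran from 1 (without control replicate 3, 6 or 8) to 8 (without control replicate 5). It was 2 when control replicate 1 or SP-infused replicate 8 was dropped, and 3 on dropping SP-infused replicate 1, 2, 4 or 7. For mated against SP-infused the count of 5 was 2 with array weights, and ran from 2 (without mated replicate 4 or 7 or SP-infused replicate 6) to 7 (without mated replicate 2), with 3 without mated replicate 5 or 6 or SP-infused replicate 8. The causes were not tested. Over the same leave-outs the share of all genes ran from 7.47% to 13.4%, 2.81% to 7.21% and 1.89% to 4.74% in these 3 comparisons. The median fold change of the members ran from 0.12 to 0.21, from -0.02 to 0.05 and from 0.05 to 0.13 in the 3 comparisons with an array left out.

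Replicate numbers were not taken to pair the arrays, and whether they do was not tested. Of 24 same-number pairs across groups, 9 had deviations correlated above 0.1, with no such count for other pairs. The median r was 0.03 for same-number pairs and -0.01 for other pairs, and 4 arrays correlated best with their own number. With the replicate block the counts were 8, 5 and 7. No sow block could be fitted, and 4 sows per group limit what these arrays can show.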
